A study of Mus musculus with 2 samples.

Results

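Ly6a, Ly6c1, Ly6d, Ly6e and Ly6i are 5 members of the Ly6/uPAR family of small surface proteins, and they were followed through every cell class of 2 single-cell libraries of mouse lung organoids. They were taken by symbol from the 27998 genes of the deposited tables. These symbols had been selected on their UMIs per 1000000 by cell class and library, the same values that are given here, so every level and ratio between the libraries is a description with no test. All 5 had at least 100 unique molecular identifiers (UMIs) over both libraries in each class compared, and a further 32 genes of the family in the tables serve as a comparison.

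Alveolar type 2 (AT2) cells were sorted from lungs of tamoxifen-treated SPC-CreERT2;R26RTomato mice (also written Sftpc-CreERT2;R26RTomato in the labels) on a C57BL/6 background, in which the promoter of Sftpc, the surfactant protein C gene, drives the Cre recombinase that labels the lineage. Organoids grew from them in Matrigel for 2 weeks, as the labels give it, together with cultured lung stromal cells that had been depleted of CD31, EpCAM and CD45 positive cells, and received PBS (control) or the inflammatory cytokine IL-1β. The figure legend and the culture methods of the study differ on the dose of IL-1β, and the legend gives a longer culture than the labels. Both groups share the genotype, the strain and the stromal co-culture. An antibody to Sca-1 (Ly-6A/E) is among the flow cytometry reagents of the study, and whether it gated the cells that started these organoids is not stated in the sources used here. Each condition is 1 library, so condition and library cannot be told apart, and cells of a library are not replicates. No test between the conditions was therefore possible, and the 95% intervals given with levels, ratios and shares cover counting error only.

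Proteins of the Ly6/uPAR family share a compact fold held by disulfide bonds, and most are attached to the outer cell membrane through a glycosylphosphatidylinositol (GPI) anchor. Ly6a, known as Sca-1, is a widely used surface marker of mouse blood stem cells and of progenitors among lung fibroblasts, and Ly6e is an interferon-stimulated gene known for its effects on virus entry. Ly6c1 encodes a Ly6C antigen known from endothelial cells, Ly6d is known from lymphoid progenitors and keratinocytes, and the role of Ly6i is less well known. IL-1β acts through its receptor on NF-κB, and this pathway and the interferon pathways control many surface proteins of inflamed epithelium.

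All 5 genes lie on chromosome 15 of GRCm38, within a stretch of 286.775 kb from the start of Ly6d to the end of Ly6c1. Ly6d (ENSMUSG00000034634) is at chr15:74762056-74763620, Ly6e (ENSMUSG00000022587) at chr15:74955051-74959905, Ly6i (ENSMUSG00000022586) at chr15:74979534-74983430, Ly6a (ENSMUSG00000075602) at chr15:74994877-74998031 and Ly6c1 (ENSMUSG00000079018) at chr15:75044018-75048830. Ly6e is on the plus strand and the other 4 are on the minus strand, and each has 3 coding exons with between 127 and 136 codons. Ly6a, Ly6c1 and Ly6i form a close group, with 86.3% identity of the coding sequence between Ly6a and Ly6i, 81.8% between Ly6a and Ly6c1 and 81.6% between Ly6c1 and Ly6i. Ly6d and Ly6e shared between 46.9% and 53.5% with each of the other members.

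Reads of this 3′ library fall near the end of the transcript, where likeness between copies bears on which gene a read is counted for. That end is compared below over 300 bases. The final 90 coding bases before the stop codon of the close group are shown as an example of likeness. They lie ahead of the untranslated end and do not show how reads were assigned. They are from GRCm38, minus strand, at chr15:74995265-74995354 for Ly6a, chr15:75045405-75045494 for Ly6c1 and chr15:74979917-74980006 for Ly6i, and capitals mark bases that differ from Ly6a, 5 in Ly6c1 and 8 in Ly6i.
Ly6a: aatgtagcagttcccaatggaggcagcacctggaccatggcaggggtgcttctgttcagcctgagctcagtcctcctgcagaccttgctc
Ly6c1: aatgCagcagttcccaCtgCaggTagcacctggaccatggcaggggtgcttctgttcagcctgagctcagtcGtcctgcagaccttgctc
Ly6i: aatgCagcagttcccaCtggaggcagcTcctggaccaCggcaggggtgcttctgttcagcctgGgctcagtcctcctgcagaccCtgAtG

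Over the final 300 bases of the transcript, Ly6c1 was 98.0% identical to Ly6c2, a family gene outside the 5, over 296 aligned bases with an unbroken identical run of 124 bases. Counts of Ly6c1 and Ly6c2 are therefore uncertain between these copies. For Ly6a and Ly6i the longest identical run shared with another gene was 37 and 49 bases, and their best matches were 86.4% and 86.0% identical. Ly6d had no match elsewhere, and Ly6e shared a run of 32 bases.

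The control library held 2101 barcodes and 33965848 UMIs and the IL-1β library 3066 barcodes and 41220175 UMIs, with medians of 14613 and 11496.5 UMIs per barcode. After filtering, 1284 control and 2582 IL-1β cells were epithelial and 780 and 476 were stromal, and 17 control cells were of other kinds. Scrublet scores marked 3 of 5142 cells as doublets (0.0583%), so doublets are not regarded as removed, and 11 barcode sequences occurred in both libraries. Classes were named from marker genes after clustering without Ly6 genes: AT2-lineage, AT1-like (alveolar type 1, the flat gas-exchange cell), DATP-like (the damage-associated transient progenitor of the study) and stromal. All 10 AT2 markers were found in AT2-lineage cells, with summed levels of 132674 UMIs per 1000000 in control and 107991 in IL-1β cells. Few clusters were shared between the libraries: AT2-lineage control cells were mostly in clusters led by Bex2, Cbr2 and Ube2c and IL-1β cells in clusters led by Dmkn, Slc26a4 and Gstm1, while AT1-like cells were led by Igfbp2 in control and AW112010 in IL-1β. The AT1-like IL-1β cluster had as many DATP markers as AT1 markers among its 10 leading genes. For DATP-like cells each library was clustered on its own, because the joint clustering held 0 control cells of that name. The control DATP-like cells are therefore also counted in another class of the joint clustering. The control classes compared below overlap in these cells, and IL-1β classes may overlap likewise. The 76 control cells so named still had 113819 UMIs per 1000000 of AT2 markers, against 69226 in the 296 IL-1β cells. Their summed DATP markers were at 2509 UMIs per 1000000, below the 2857 of control AT1-like cells and above the 860 of control AT2-lineage cells, whereas IL-1β DATP-like cells had 4413. The control cells were led by Cox6a2, Lgals3, Clu, Trib3, Mthfd2, Areg, Asns and Atf5, of which Trib3, Mthfd2, Asns and Atf5 are known from the response to amino acid stress.

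Ly6i was low in each control epithelial class and high in each IL-1β epithelial class. In AT2-lineage cells it was at 53.6 UMIs per 1000000 UMIs of the class (CPM) in the 1058 control cells (exact Poisson 95% interval 50.1 to 57.3) and at 1092 CPM in the 1783 IL-1β cells (1078 to 1106). In DATP-like cells the levels were 32.6 and 1104 CPM, and in AT1-like cells, 225 control and 424 IL-1β, they were 8.37 and 964 CPM. The 3 IL-1β classes thus lay close together, whereas control AT1-like cells were below control AT2-lineage cells. The IL-1β over control ratio was 20.4 in AT2-lineage cells (exact interval 19.02 to 21.8), 33.9 in DATP-like cells (24.7 to 47.7) and 115 in AT1-like cells (79.1 to 175). The size depended on how the classes were drawn: the DATP-like ratio was 6.70 with all highly variable genes used for clustering, from 32 control cells, and the AT1-like ratio ranged from 51.0 to 190. In the former setting the DATP-like class took in a cluster led by Slc26a4 and Cd14, with 7 control and 476 IL-1β cells. The cluster so led was AT2-lineage in the main clustering, so DATP-like ratios of every member in that setting are for a different set of cells. Only 3 of the 7846 genes with at least 100 UMIs over both libraries had a larger ratio than Ly6i in AT1-like cells, and 36 of 10418 did in AT2-lineage cells.

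Ly6d was higher in each IL-1β epithelial class too, and most so by level in AT2-lineage cells. It was at 9.20 CPM in control AT2-lineage cells (7.77 to 10.8) and at 177 CPM in IL-1β AT2-lineage cells (171 to 182). DATP-like cells had 15.1 and 150 CPM. In AT1-like cells only 4 control UMIs were counted, which is 1.24 CPM (0.338 to 3.17), and the IL-1β level was 37.7 CPM (32.8 to 43.2). The IL-1β level was 4.68 times higher in AT2-lineage than in AT1-like cells (4.08 to 5.41). Summed AT2 markers were at 30234 CPM in control and 34348 CPM in IL-1β AT1-like cells, against 132674 and 107991 CPM in AT2-lineage cells. Whether AT1-like Ly6d was carried over from AT2-lineage RNA was not tested. The IL-1β over control ratios were 19.2 in AT2-lineage (16.3 to 22.8), 9.94 in DATP-like (6.22 to 16.9) and 30.4 in AT1-like cells (11.7 to 113), and the last interval is wide because of the low control count.

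**Figure D1:**
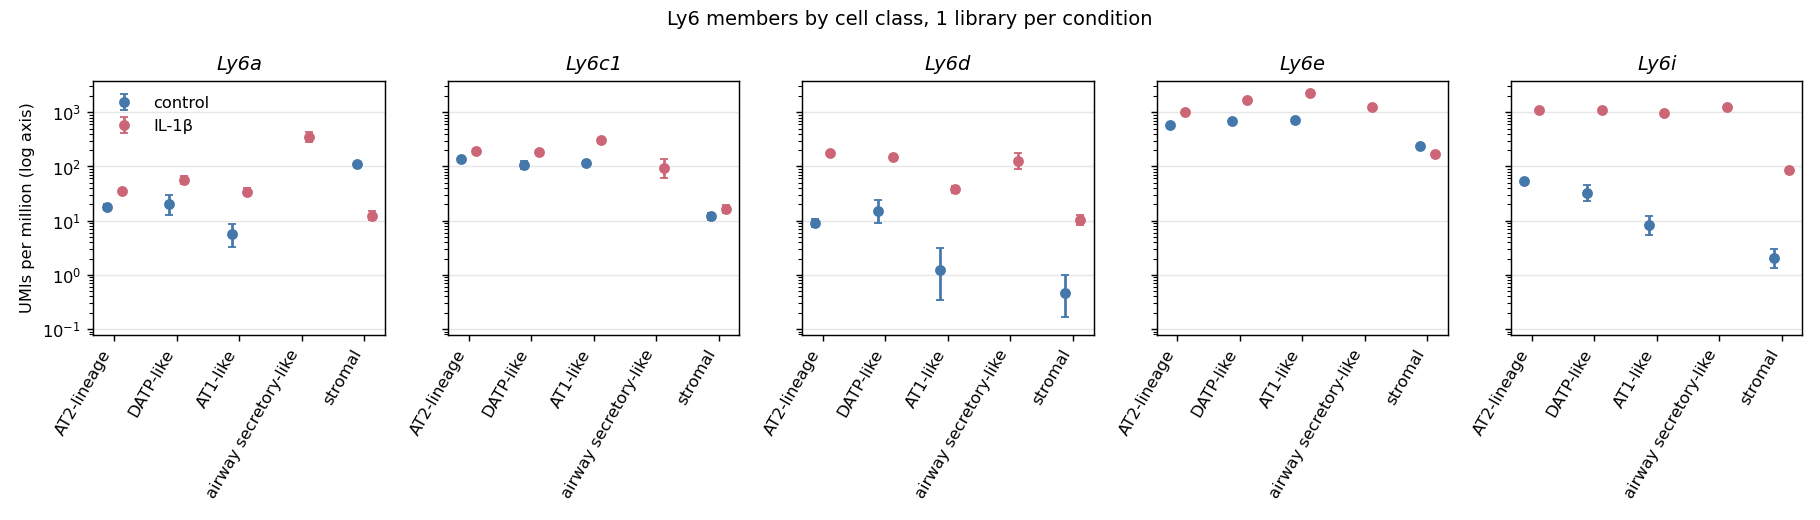
UMIs per 1000000 (vertical log axis) of the 5 Ly6 members in each cell class of the control (blue) and IL-1β (red) library, with exact Poisson 95% intervals for counting error. DATP-like cells are from libraries clustered separately, and the control ones are also counted in another class. Ly6i in AT1-like cells lies at 8.37 in control and 964 in IL-1β, while Ly6a in stromal cells lies at 113 in control and 12.3 in IL-1β.

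Ly6e was found in nearly every epithelial cell of both libraries. Its level in AT2-lineage cells was 589 CPM in control (577 to 601) and 1025 CPM in IL-1β (1012 to 1039). DATP-like cells had 686 CPM in control and 1703 CPM in IL-1β. AT1-like cells had 720 and 2270 CPM, the highest level of this gene in each library among these 3 classes except that the control AT1-like and DATP-like intervals overlapped. AT1-like cells were highest in 9 of 12 alternatives in control and in 11 of 12 in IL-1β. Louvain clustering left 5 IL-1β AT1-like cells, too few to rank that class there. Most control alternatives had too few DATP-like cells to rank that class. Control DATP-like cells were highest with Louvain clustering and with all highly variable genes used for clustering. With surfactant, mitochondrial, ribosomal protein and lysozyme genes left out, control AT2-lineage cells were highest. The ratios were 1.74 in AT2-lineage (1.70 to 1.78), 2.48 in DATP-like (2.31 to 2.67) and 3.15 in AT1-like cells (3.02 to 3.30). With all highly variable genes used for clustering the DATP-like ratio was 1.55.

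Ly6c1 had the smallest ratio in each of the 3 epithelial classes, although its DATP-like ratio was 4.43 with all highly variable genes used for clustering. In AT2-lineage cells it was at 138 CPM in control (132 to 144) and 191 CPM in IL-1β (186 to 197), a ratio of 1.39 (1.32 to 1.46). In DATP-like cells it was at 107 and 183 CPM, a ratio of 1.71 (1.41 to 2.09). AT1-like cells had 116 CPM in control and 309 CPM in IL-1β, a ratio of 2.66 (2.38 to 2.99). The near copy Ly6c2 was at 77.8 and 83.0 CPM in AT2-lineage cells (ratio 1.07, 0.991 to 1.15). Ly6c1 is also an endothelial gene, and the endothelial markers Cdh5, Emcn, Kdr and Tie1 were at 0 UMIs in control AT2-lineage cells, as were Cdh5 and Kdr in IL-1β AT2-lineage cells. Of all 8 endothelial markers 4 were detected in control and 6 in IL-1β AT2-lineage cells, with summed levels of 122 and 94.3 CPM. Among 7 lymphocyte markers, 2 were detected in control and 3 in IL-1β AT2-lineage cells, with summed levels of 1.89 and 2.72 CPM. Cd3d, Cd3e and Nkg7 were at 0 in both. Macrophage markers summed to 13.2 CPM in control and 39.1 CPM in IL-1β AT2-lineage cells, with 8 of 10 entries detected in each and Adgre1 at 0 in both. Whether other cell types contributed to Ly6c1 was not tested.

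Ly6a was low in the epithelium of both libraries. It was at 18.0 CPM in control AT2-lineage cells (15.9 to 20.2) and 36.0 CPM in IL-1β AT2-lineage cells (33.5 to 38.6). DATP-like cells had 20.1 and 56.5 CPM, and AT1-like cells 5.58 CPM, from 18 UMIs, and 34.5 CPM. IL-1β epithelium was above control in each class, by 2.00 times in AT2-lineage (1.75 to 2.30), 2.81 times in DATP-like (1.83 to 4.51) and 6.18 times in AT1-like cells (3.81 to 10.7). The DATP-like ratio was 1.07 with all highly variable genes used for clustering, and the AT1-like ratio was 3.26 with each library clustered separately.

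Counted at a ratio of at least 2, 3 of the 5 members were higher in IL-1β AT2-lineage cells and 0 lower, where 5.8% of the 10418 genes tested were higher and 3.8% lower. Ly6a stood at the threshold itself, and the count was 2 of 5 at the higher clustering resolution, with each library clustered separately and with surfactant, mitochondrial, ribosomal protein and lysozyme genes left out. In DATP-like cells 4 of 5 were higher and 0 lower (6.73% and 2.15% of 5198 genes), and in AT1-like cells 5 of 5 were higher and 0 lower (4.47% and 2.92% of 7846 genes). The DATP-like count was 3 of 5 with all highly variable genes used for clustering, where Ly6a (1.07) and Ly6e (1.55) were below the threshold and Ly6c1 (4.43) above it. The AT1-like count was 4 of 5 with each library clustered separately, where Ly6c1 was at 1.98. Over all epithelial cells 4 of 5 were higher and 0 lower (6.22% and 3.61% of 11051 genes). The median log2 ratio of the 5 members was 1.00 in AT2-lineage, 1.49 in DATP-like and 2.63 in AT1-like cells, beside 0.06, 0.05 and -0.02 over all genes tested. Since the members were chosen on these same values, nothing is read from the shares.

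**Figure D2:**
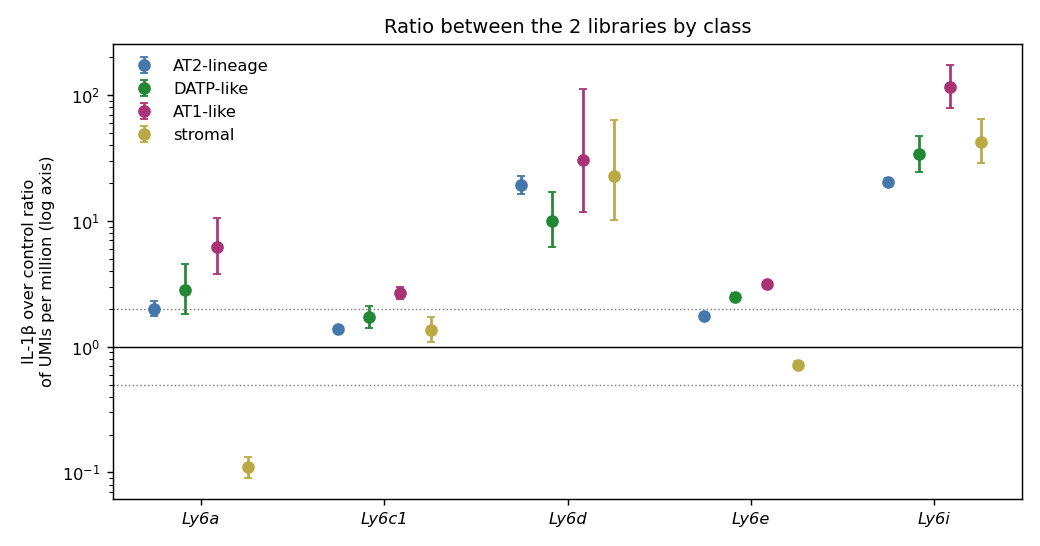
Ratio of UMIs per 1000000 in the IL-1β over the control library (vertical log axis) for each Ly6 member by class, with exact 95% intervals for counting error, a solid line at equality and dotted lines at a 2-fold difference. The ratios of Ly6i reach 115 in AT1-like cells, and Ly6a and Ly6e in stromal cells are the points below equality, at 0.11 and 0.72.

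To see how many cells carried each transcript, every cell was thinned to 4000 UMIs, a depth that all cells reached, because control AT2-lineage cells were deeper (median 14287 UMIs) than IL-1β cells (11439). At that depth Ly6i was found in 11.3% of control AT2-lineage cells (exact Clopper-Pearson interval 9.49% to 13.4%) and in 88.4% of IL-1β cells (86.9% to 89.9%). Without thinning the shares were 27.2% and 97.2%. The median IL-1β AT2-lineage cell had 4 thinned Ly6i UMIs and the median control cell 0. Stromal cells, with median depths of 15638 and 14869.5 UMIs, had a Ly6i UMI in 0.769% of control and 28.8% of IL-1β cells after thinning.

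Ly6d was spread less evenly than Ly6i over IL-1β cells. It was found in 25.8% of thinned IL-1β AT2-lineage cells (23.8% to 27.9%) and 3.40% of control cells (2.39% to 4.68%), against 43.1% and 8.79% without thinning. The stromal shares were 4.41% in IL-1β and 0.385% in control. The 10% of IL-1β AT2-lineage cells with the most Ly6d held 73.1% of its thinned UMIs, whereas the same share of cells held 28.5% for Ly6i and 26.2% for Ly6e. Such a share rises as the mean falls, and the means were 0.713, 4.34 and 4.16 thinned UMIs. For Ly6c1, with a mean of 0.710, it was 43.8%. The highest IL-1β cell had 29 thinned Ly6d UMIs while the 90th percentile had 2. A minority of AT2-lineage cells thus carried most Ly6d, and Ly6i and Ly6e were carried by most cells.

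For the other members the shares at 4000 UMIs lay closer together, but such differences depend on depth. At 2000 UMIs Ly6e was found in 61.8% of control and 80.3% of IL-1β AT2-lineage cells, 18.5 percentage points apart, and Ly6d in 1.70% and 18.2%, 16.5 points apart. At 4000 UMIs Ly6e was found in 82.3% of thinned control and 94.4% of IL-1β AT2-lineage cells (unthinned 96.7% and 99.3%), with medians of 2 and 4 UMIs. Ly6c1 was found in 34.1% and 43.0% (unthinned 66.3% and 71.1%). Ly6a was found in 5.67% and 12.1% (unthinned 19.3% and 28.3%), with a 90th percentile of 1 UMI in IL-1β and 0 in control cells. Thinned stromal shares in control and IL-1β were 51.9% and 47.7% for Ly6e, 4.23% and 7.98% for Ly6c1 and 25.8% and 4.41% for Ly6a.

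**Figure D3:**
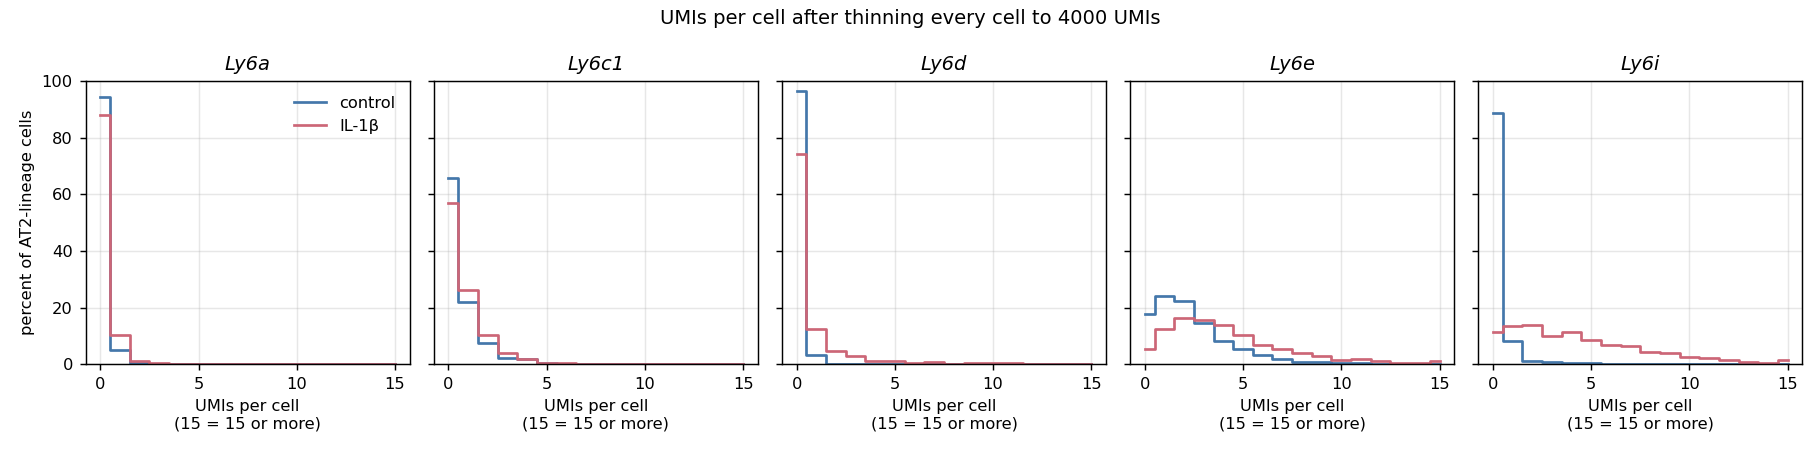
Percent of AT2-lineage cells (vertical axis) by UMIs of each member per cell (horizontal axis, 15 standing for 15 or more) after thinning every cell to 4000 UMIs, control in blue and IL-1β in red. For Ly6i 88.4% of IL-1β cells and 11.3% of control cells lie above 0, while for Ly6d most cells of both libraries lie at 0.

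A few control cells carried much of the control Ly6i. The joint clustering put 16 of the 1058 control AT2-lineage cells into clusters held mostly by IL-1β cells, and these 16 cells held 316 of the 851 control Ly6i UMIs (37.1%). All 16 had Ly6i, with a range of 1 to 97 UMIs, and their summed level was 1252 CPM, against 34.2 CPM in the other 1042. They had 0 Ly6d UMIs among 252321 UMIs. Their Ly6e was at 1387 CPM against 576, their Ly6a at 91.2 against 16.8 CPM and their Ly6c1 at 67.4 against 139 CPM. The Ly6a level rests on 23 UMIs in 6 of the 16 cells, with a highest count of 10 and a median of 0. The summed levels of Ly6i, Ly6e and Ly6a in these 16 cells were thus at or above those of IL-1β AT2-lineage cells, and those of Ly6d and Ly6c1 were not. Without them the AT2-lineage ratio of Ly6i was 31.9 and that over all epithelial cells 34.1 in place of 22.5.

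Other genes, chosen after their values were seen, did not place the 16 cells with 1 library throughout. Cd14, a co-receptor for bacterial lipopolysaccharide, was at 840 CPM in them, 48.1 CPM in the other control cells and 549 CPM in IL-1β AT2-lineage cells. Lcn2, an iron-sequestering acute-phase protein, was at 16372, 3204 and 18954 CPM. Bex2, in contrast, was at 333 CPM, 816 CPM and 25.1 CPM. It was found in 10 of the 16 cells, 961 of the other 1042 and 140 of the 1783 IL-1β cells. The neutrophil chemokine gene Cxcl5 was at 2834 CPM in the 16 cells, above both the other control cells (21.2 CPM) and the IL-1β cells (327 CPM). It was found in 10 of the 16 cells. Cd14 and Cxcl5 are among the leading genes of the joint cluster that held 13 of the 16. Their high levels therefore follow in part from how the cells were grouped. Median depth was 15583.5 UMIs in the 16 cells and 14247.5 in the other control AT2-lineage cells, and 0 of the 16 barcodes occurred in the IL-1β library. Of these cells 15 fell in the control state led by Cd14 and Slc26a4 when that library was clustered on its own. That state had 158 cells, with Ly6i at 199 CPM (181 to 219). Ly6i was at 49.0 CPM (39.7 to 59.9) in the 142 other cells of the state that the joint clustering named AT2-lineage. That level leaves out the 15 cells and also any cell of the state outside the AT2-lineage class. How the 16 cells came to be in the control library was not tested.

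Among other control states, the 33 cells led by the interferon-stimulated genes Isg15, Irf7 and Rsad2 were compared with the rest for each member. Ly6c1 was at 310 CPM in them, 2.40 times the rest of the control epithelium (2.04 to 2.81). Ly6a was at 50.4 CPM, 3.39 times the rest (2.20 to 5.05), and Ly6e was at 984 CPM, 1.63 times the rest (1.49 to 1.78). Ly6i was at 46.7 CPM, a ratio of 0.98 (0.632 to 1.46). The rest here includes 15 of the 16 control cells described above. Those 16 were at 1252 CPM of Ly6i, against 34.2 CPM in the other 1042 control AT2-lineage cells. The Ly6i ratio without them was not computed. In this state Ly6a, Ly6c1 and Ly6e were therefore above other control epithelium beyond counting error, and for Ly6i the interval spans from lower to higher. Ly6d was at 11.2 CPM with a ratio of 1.45 (0.522 to 3.22). The IL-1β library held only 15 cells of such a state, with Ly6i at 1278 CPM and Ly6c1 at 311 CPM. These were 1.197 times (1.06 to 1.35) and 1.499 times (1.15 to 1.92) the rest of the IL-1β epithelium. Ly6e, at 1244 CPM, was at 0.944 of the rest (0.831 to 1.07) and Ly6a, at 38.9 CPM, at 0.981 (0.422 to 1.94). That rest includes AT1-like and DATP-like cells, with Ly6e at 2270 and 1703 CPM, whereas IL-1β AT2-lineage cells were at 1025 CPM. The Ly6e level of the 15 cells was thus above that of AT2-lineage cells, and no ratio to that class was computed. For Ly6a the interval spans from lower to higher.

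Within the IL-1β library the members divided the AT2-lineage states differently. Ly6d was highest in the states led by BC030867 and Lyz1 (335 cells, 250 CPM), Hdc and Hc (372 cells, 238 CPM) and Gstm1 and Slc7a11 (288 cells, 202 CPM). In the state led by Slc26a4 and Cd14 (479 cells) it was at 77.9 CPM, lower than in the first of these by 3.21 times (2.85 to 3.61). Between the Slc26a4 and Cd14 state and the BC030867 and Lyz1 state, Ly6e and Ly6c1 differed in the opposite direction to Ly6d. The Slc26a4 and Cd14 state had 1484 CPM of Ly6e and 290 CPM of Ly6c1, against 854 and 121 CPM in the BC030867 and Lyz1 state, ratios of 1.74 (1.67 to 1.81) and 2.40 (2.16 to 2.67). Ly6i varied less among these 4 states, from 806 to 1280 CPM, and its highest AT2-lineage level was 1438 CPM in the state led by Cxcl5 and Pf4 (277 cells).

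Along the cells with AT1 and DATP markers, Ly6i was not even. The 249 cells led by AW112010 and Serpinb9 were left unnamed, because DATP markers were ahead of AT1 markers among the leading genes although AT1 markers scored highest, and had 1421 CPM of Ly6i, 2409 CPM of Ly6e and 391 CPM of Ly6c1. The 185 AT1-like cells led by Akap5 and Rtkn2 had 425 CPM of Ly6i, 2082 CPM of Ly6e and 225 CPM of Ly6c1. Ly6i was thus 3.34 times higher in the unnamed cells (3.13 to 3.57) and Ly6e 1.16 times (1.117 to 1.198). Joint clustering named 227 of the former and all 185 of the latter AT1-like. With the libraries clustered separately, 185 IL-1β cells against 217 control cells, the AT1-like ratio of Ly6i was 51.0 and that of Ly6a 3.26. Ly6d was low in both, at 40.6 and 23.1 CPM.

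Ly6a was highest, among IL-1β epithelial cells, in airway secretory-like cells. The 48 cells led by Scgb1a1 and Cbr2 had 177 CPM of Ly6a (147 to 211), 4.84 times the rest of the IL-1β epithelium (3.98 to 5.85), while their Ly6c1 and Ly6d were at 178 and 143 CPM. In the joint clustering the airway secretory-like class held 14 cells with 348 CPM of Ly6a. Control had no cells of that name, and its 91 unnamed cells led by Scgb1a1 and Cd24a had 12.8 CPM. A pair of further groups were small: 38 unnamed IL-1β cells led by Ccl20 had 1374 CPM of Ly6i, and the control cycling-like state (87 cells) had 43.6 CPM.

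**Figure D4:**
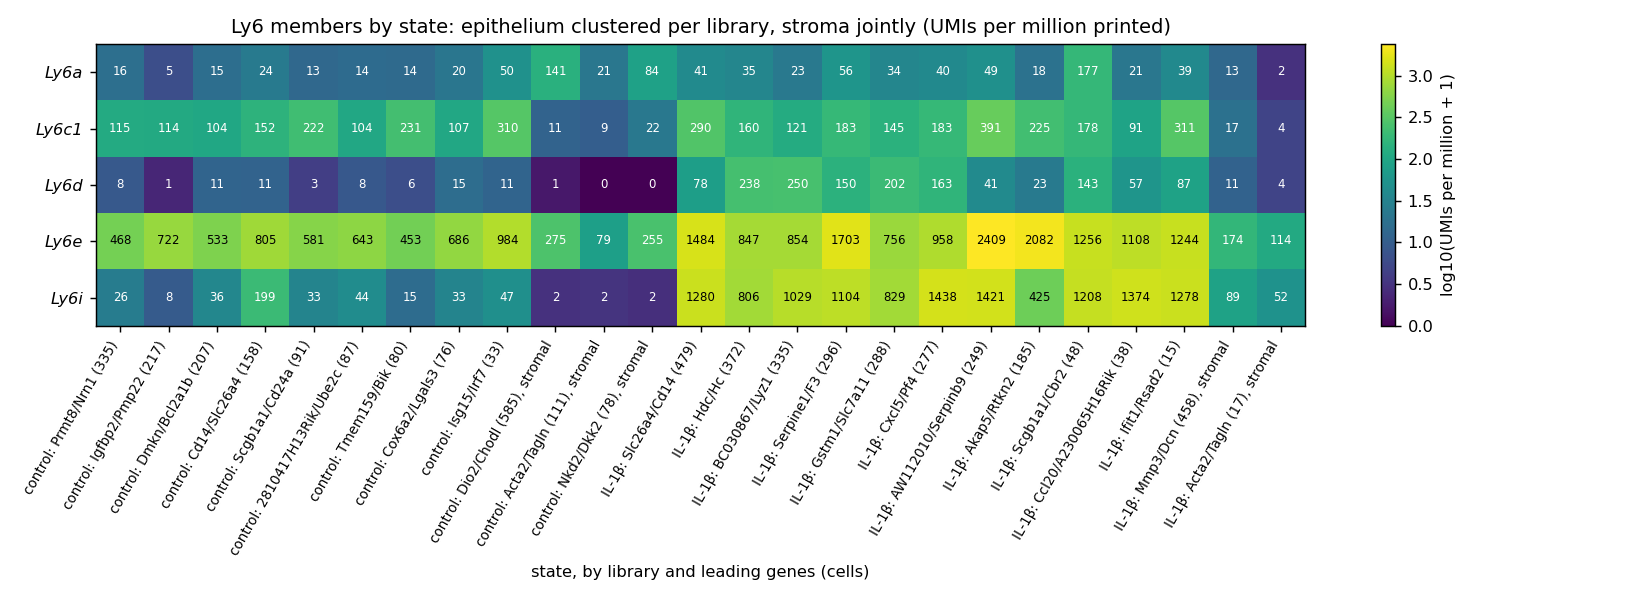
Level of each member by state, from epithelial cells clustered library by library and stromal cells clustered jointly; colour is log10 of UMIs per 1000000 plus 1, the printed numbers are UMIs per 1000000, and the number of cells is in parentheses. Ly6i is high in every IL-1β epithelial state (425 to 1438), and in control the Cd14 and Slc26a4 state stands out at 199.

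In stromal cells the direction differed among members. Ly6a was at 113 CPM in the 780 control cells (107 to 119) and 12.3 CPM in the 476 IL-1β cells (10.2 to 14.8), 9.13 times lower in IL-1β (7.56 to 11.1). Ly6e was at 238 CPM in control (230 to 246) and 171 CPM in IL-1β (163 to 180), a ratio of 0.72 (0.677 to 0.764). Ly6c1 was at 12.02 and 16.5 CPM (1.37, 1.09 to 1.72). The fibroblast marker Ly6a was thus lower in stromal cells of the IL-1β library, whereas it was higher in AT2-lineage, DATP-like and AT1-like cells. Ly6d was at 0.454 and 10.3 CPM (ratio 22.8, 10.1 to 63.6), from 6 control UMIs, and Ly6i at 2.04 and 86.7 CPM (ratio 42.5, 29.0 to 64.9). Stromal Ly6d in both libraries and stromal Ly6i in control were at the level of free RNA of the surfactant gene Sftpc, for which the values follow, so the stromal Ly6d ratio is not read as a difference between stromal cells. Of the 5 members 2 were at least 2-fold higher, Ly6d and Ly6i, and 1 lower, Ly6a, where 3.62% of the 9992 genes tested were higher and 10.1% lower, and the count of higher members is likewise not read as stromal. The median log2 ratio of all stromal genes tested was -0.32, and the log2 ratio of Ly6e, -0.48, lay close to it while that of Ly6a, -3.19, did not.

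The stromal comparison set different clusters side by side. Of the control cells 585 were led by Dio2 and Chodl, with Ly6a at 141 CPM (134 to 149), whereas 458 of the IL-1β cells were led by Mmp3 and Dcn, with Ly6a at 12.95 CPM (10.7 to 15.5). In the state led by Acta2 and Tagln, contractile genes, the 111 control cells had 21.0 CPM (15.5 to 27.9) and the 17 IL-1β cells 1.99 CPM, from 1 UMI (0.0505 to 11.1). The 78 control cells led by Nkd2 and Dkk2 had 84.3 CPM. Within the control stroma Ly6a was therefore lower in the contractile state, and the direction between the libraries was the same in that state. Summed endothelial markers in stromal cells were 19.6 CPM in control and 82.6 CPM in IL-1β, with all 8 detected in the latter, and macrophage markers reached 18.4 CPM at most. Their part in the stromal values was not tested.

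Free RNA in the droplets was gauged from genes that mark the other cell type. Sftpc, the AT2 surfactant gene, was in stromal cells at 3.69% of its AT2-lineage level in control and 5.92% in IL-1β. Stromal Ly6d was at 4.93% (1.78% to 11.0%) and 5.86% (4.74% to 7.16%) of its AT2-lineage level, and stromal Ly6i at 3.81% (2.50% to 5.58%) in control. These intervals include the Sftpc value, so stromal Ly6d in both libraries and stromal Ly6i in control cannot be told apart from free RNA here. The control Ly6d value rests on 6 stromal UMIs, and expression by stromal cells was not tested. Stromal Ly6i in IL-1β was at 7.94% (7.40% to 8.52%), somewhat above Sftpc, and its source was not tested. Sftpc is an imperfect gauge for Ly6i: DATP-like and AT1-like IL-1β cells had Ly6i near its AT2-lineage level but lower summed AT2 markers. Ly6c1 was at 8.70% and 8.60%, Ly6e at 40.3% and 16.7% and Ly6a at 628% and 34.3%. In the other direction, collagen genes and Dcn were in AT2-lineage cells at between 1.69% and 2.57% of their stromal level, and Ly6a at 15.9% in control and 291% in IL-1β.

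**Figure D5:**
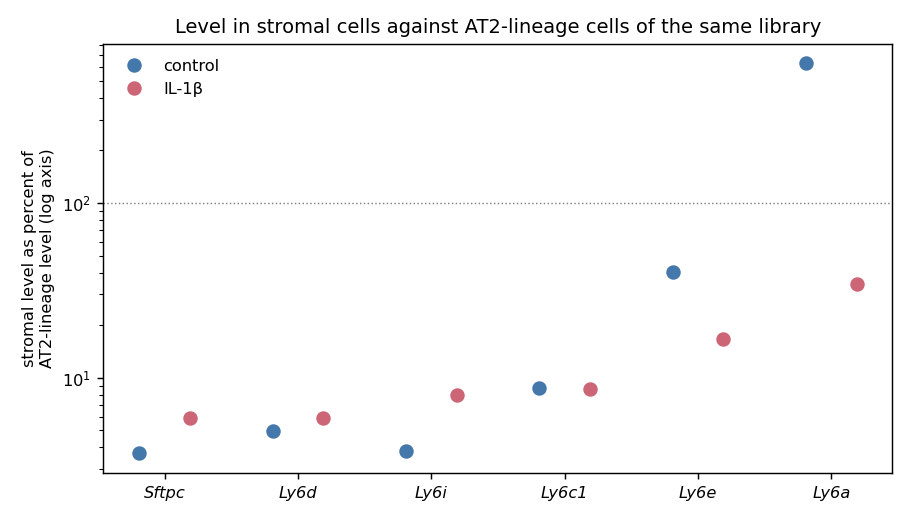
Level in stromal cells as a percent of the level in AT2-lineage cells of the same library (vertical log axis) for Sftpc, the surfactant gene used as a gauge of free RNA, and the 5 members, with control in blue, IL-1β in red and a dotted line at equal levels. Ly6d and Ly6i lie near Sftpc (between 3.69 and 7.94), while Ly6a moves from 628 in control to 34.3 in IL-1β.

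The wider family was mostly at low counts. Of 32 other Ly6/uPAR genes in the tables, 7 had at least 100 UMIs in AT2-lineage cells, and 3 of these were at least 2-fold higher in IL-1β and 0 lower, beside 5.8% and 3.8% of all genes tested. Lypd6b, a modulator of nicotinic acetylcholine receptors, was at 1.13 and 8.30 CPM (ratio 7.32, 4.50 to 12.6). Ly6k was at 4.98 and 21.0 CPM (4.21, 3.31 to 5.42) and Lynx1, also a modulator of nicotinic receptors, at 6.24 and 13.3 CPM (2.14, 1.69 to 2.71). In AT1-like cells 2 of 4 were higher, Lypd6b (7.21) and Lynx1 (2.81), and 0 lower, beside 4.47% and 2.92% of all genes. None of 1 in DATP-like and none of 2 in stromal cells passed in either direction. Over all epithelial cells 4 of 9 were higher and 0 lower, beside 6.22% and 3.61%. With a minimum of 20 UMIs, 6 of 13 were higher in AT2-lineage cells, and the share over all genes at that minimum was not computed.

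Genes that build and attach the GPI anchor differed little between the libraries. All 27 of the 28 listed genes that had enough UMIs in AT2-lineage cells stayed within 2-fold, with a median log2 ratio of 0.06, as did all 19 in AT1-like cells (-0.04). In DATP-like cells 1 of 13 was higher, Pigx (2.04, 1.34 to 3.20), and 0 lower, where 6.73% and 2.15% of all genes were. In stromal cells 0 of 19 were higher and 1 was lower, Pigf (ratio 0.457, 0.335 to 0.617), where 3.62% and 10.1% of all genes were.

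Interferon signalling was described because several members are known to respond to it. Of 5 listed interferon genes, none had 100 UMIs in any class, Ifng had 0 UMIs in every class and Ifnb1 had 6 UMIs in IL-1β AT2-lineage cells. Among 14 receptor and signalling genes, 13 had enough UMIs in AT2-lineage cells, and 2 receptor subunits were higher and 0 genes lower (5.8% and 3.8% of all genes). These were Ifnar2, at 38.0 and 92.2 CPM (ratio 2.42, 2.21 to 2.66), and Ifngr2, at 46.9 and 105 CPM (2.23, 2.05 to 2.43). In AT1-like cells Ifnar2 (2.64) and Irf1 (2.29) were higher out of 12, and in DATP-like cells Ifngr1 (2.86), Ifngr2 (2.32) and Ifnar2 (2.77) out of 7, with 0 lower in each, where 4.47% of all genes were higher in AT1-like and 6.73% in DATP-like cells. In stromal cells 0 of 13 were higher and 6 lower, where 3.62% of all genes were higher and 10.1% lower. Among these were the interferon regulatory factors Irf9 (0.393), Irf1 (0.478) and Irf7 (0.316). The stromal median of this list was -0.78 on the log2 scale, against -0.32 over all genes tested.

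The genes most like each member were ranked by Pearson correlation of log2(CPM + 1) over 20 clusters with at least 50 cells, among 10506 genes. These clusters include stromal ones beside the epithelial states, and likeness within the epithelium alone was not computed. The points share 2 libraries and their depths, so these are descriptions. For Ly6i they were Pglyrp1 (0.99), Fcer2a (0.98), Noxo1 (0.97), Cd14 (0.95) and Pigr (0.95), where Pglyrp1 binds bacterial peptidoglycan and Pigr carries antibodies across epithelia. For Ly6d they included Pglyrp1 (0.95), Rnf128 (0.94), Ly6i (0.94) and Fcer2a (0.93). For Ly6e they were Psmb8 (0.95) and Psmb9 (0.95), subunits of the immunoproteasome, then Fam173a, Tapbpl and Rnf135. For Ly6c1 they were Adgrg1 (0.98), Cd74 (0.97), H2-Eb1 (0.97), Muc1 (0.97) and H2-Aa (0.97), of which Cd74, H2-Eb1 and H2-Aa belong to MHC class II presentation. For Ly6a the nearest were Swi5 (0.79) and Steap4 (0.77), then Ctnnbip1, Mrps16 and Tmem216. Among the members Ly6d and Ly6i were most alike (0.94), then Ly6c1 and Ly6e (0.88), and Ly6a had values between -0.22 and 0.15 with the other 4.

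Of the 5 members, only Ly6c1 had promoter windows in the RefSeq table used (GRCm38.p6), 2 windows of 300 bases. Neither held TTCNNNGAA, GAAANNGAA or TGANTCA on either strand, letters that 8.30%, 8.56% and 7.81% of all 32851 windows hold, and both held GGG followed by any 5 bases and CC, as 50.8% of windows do. No match says only that these letters are not in the window.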

How the data were processed

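The authors deposited raw UMI counts per gene and cell barcode for 1 control and 1 IL-1β organoid library, made with Cell Ranger, whose build is GRCm38 per the labels and methods, which also name mm9. The deposited counts are not filtered for stromal cells or doublets. The cell filter asked for over 500 genes, under 7000 genes and over 2000 UMIs, and doublets were cells with a scrublet score above 0.7 or of clusters whose mean score was above 0.6. Cells were clustered with scanpy 1.11.5 and leidenalg 0.10.2 (50 components, 15 neighbors, resolution 1.0), leaving out Ly6/uPAR genes, and clusters were named by marker folds (pseudocount of 0.1) with at least 3 markers. DATP-like cells were taken from separate clusterings, a change from the plan. UMIs were summed per class and scaled per 1000000. Levels have exact Poisson, ratios exact conditional binomial and shares exact Clopper-Pearson 95% intervals, which cover counting error only. Genes with at least 100 UMIs over both libraries were called at 2-fold. Counts set the width of these intervals, which leave out the spread between cells, and the design allows no test.

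The members, lists and classes were chosen with earlier results of these data known. Named genes are the 5 members, up to 4 called genes per list by UMIs, and the 5 genes most like each member over clusters (at least 200 UMIs, without ribosomal, mitochondrial and predicted genes). Sequences are from GRCm38, aligned with Biopython 1.88 and BLAST+ 2.17.0+. The interval code was tested on simulated Poisson counts, which hold no further spread between cells. Alternatives varied filtering, doublets, resolution, algorithm, genes, seed, separate clustering, scaling, thinning and the UMI minimum. Others were chosen after seeing the data: leaving out shared barcodes, leaving out the control cells that cluster with IL-1β cells, and separate clustering for DATP-like cells. Results of a few named genes are not reported here.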

Additional observations from a re-analysis of the deposited data

Results flagged for a closer look

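Ly6a and Ly6e stood out because their difference between the libraries had opposite directions in epithelial and stromal cells. The log2 IL-1β over control ratio of Ly6a was 1.00 in AT2-lineage cells and 2.63 in AT1-like cells, and -3.19 in stromal cells. For Ly6e it was 0.80 in AT2-lineage cells and 1.66 in AT1-like cells, and -0.48 in stromal cells, where the median of all genes was -0.32. With 1 library per condition the difference between the classes was not tested.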

How the results depend on the processing

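All 265 ratios recomputed under 12 alternatives kept their direction, and 220 stayed within the counting interval of the reported ratio. Some of these ratios could not change. The resolution and separate-clustering alternatives redrew epithelial classes only, so their stromal and all-epithelial ratios were those reported. Leaving out the 16 control AT2-lineage cells touched no stromal or AT1-like ratio. The counts of members at least 2-fold higher stayed within 1.5 times of those reported. List counts depended on the UMI minimum: with 20 in place of 100 UMIs, the higher genes of the other Ly6/uPAR list were 6 in place of 3 in AT2-lineage, 4 in place of 2 in AT1-like and 2 in place of 0 in DATP-like and in stromal cells, and with 500 UMIs 1 was left in AT2-lineage and 0 in AT1-like cells. The higher interferon receptor and signalling genes of DATP-like cells were 6 with 20 and 0 with 500 UMIs, in place of 3, and those of AT1-like cells were 1 with 500, in place of 2. The higher GPI anchor genes were 2 with 20 and 0 with 500 UMIs in DATP-like cells, in place of 1, and 1 with 20 in stromal cells, in place of 0. Over all epithelial cells 2 other Ly6/uPAR genes were higher with 500 UMIs, in place of 4. The shares over all genes at 20 and 500 UMIs were not computed, so nothing further is read from these list counts. Clustering moved several ratios by over 1.5 times. The AT1-like ratio of Ly6i ranged from 51.0 (libraries clustered separately) to 190 (5% highest doublet scores removed), that of Ly6d from 12.4 to 40.2 and that of Ly6a from 3.26 to 8.17. With all highly variable genes used for clustering, the DATP-like ratios were 6.70 for Ly6i, 1.07 for Ly6a, 4.43 for Ly6c1, 22.9 for Ly6d and 1.55 for Ly6e, and Louvain clustering gave 6.06 for Ly6d. The Louvain DATP-like class took in a cluster led by AW112010 and Cldn4, with 2 control and 401 IL-1β cells. The cluster led by AW112010 was AT1-like in the main clustering, so the Louvain DATP-like ratios are for a different set of cells. Leaving out the 16 control cells that cluster with IL-1β cells gave 31.9 for Ly6i in AT2-lineage cells, and averaging over cells gave 63.9 in stromal cells. The causes were not tested. With at most 13 cells of the class in 1 library, 5 alternatives gave no DATP-like value and Louvain gave no AT1-like one. The highest class was sought among AT2-lineage, DATP-like, AT1-like and stromal cells only. Among these, Ly6a was highest in stromal cells of the control library in 12 of 12 settings. Ly6i was highest among them in AT2-lineage cells of the IL-1β library in 8 of 12. Unnamed and airway secretory-like cells were not ranked. In the main clustering their IL-1β Ly6i was 1.39 and 1.137 times the AT2-lineage level, so AT2-lineage cells were not highest of all classes. No paired analysis was possible because each condition has 1 library.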
